A study of Mus musculus with 7 samples.

Results

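The 10 genes described here form the core of the circadian clock: Arntl (also known as Bmal1), Clock, Per1, Per2, Per3, Cry1, Cry2, Dbp, Nr1d1 and Nr1d2. They were taken by gene symbol, and all 10 were found among the 12239 genes measured. RNA sequencing was performed on the tibialis anterior (TA), which lies at the front of the shin and consists mainly of fast-twitch fibres, of male mice aged 5 to 6 months. There were 4 libraries from wild-type FVBN mice (WT) and 3 from C2-/- mice. In C2-/- mice a neomycin cassette flanked by LoxP sites takes the place of a block of exons of Mybpc2, which encodes fast skeletal myosin binding protein-C. The comparison addressed which transcripts differ in fast muscle that lacks this protein. The hour at which each mouse was dissected is not given in the sources used here.

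The molecular clock is a feedback loop that runs in nearly every cell, muscle fibres included. ARNTL and CLOCK form a dimer that activates genes through E-boxes, among them the Per, Cry and Nr1d genes and Dbp. PER and CRY proteins return to the nucleus and repress that dimer, and the nuclear receptors REV-ERB alpha (Nr1d1) and REV-ERB beta (Nr1d2) repress Arntl, so that in most tissues Arntl peaks when Per and Dbp transcripts are low. Dbp carries the rhythm to output genes through D-boxes. The level of each of these transcripts therefore depends on the hour, and in skeletal muscle the loop is known to drive a part of the metabolic and myogenic programme.

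The reference promoters of these genes were searched for elements that the factors of the loop recognise. RefSeq windows of 300 bases, from 250 before to 50 after each start site (build GRCm38.p6), were matched for 9 of the 10 genes, with 13 start sites. Per2 had no entry. Both strands were searched for the E-box CACGTG, the related E'-box CACGTT, the D-box TTATGTAA or TTACGTAA, the receptor core AGGTCA shared by ROR and REV-ERB elements, and the cAMP response element TGACGTCA. No matches in the windows of the clock genes shared a base. The E-box stood in the windows of Per1 and Cry1, against 7.15% of all 32851 windows. The E'-box stood in those of Cry1, Cry2 and Nr1d1 (4.685% of all windows) and the D-box in that of Per3 (1.056%), where it occurred 2 times. The receptor core stood in those of Arntl, Clock, Per1 and Nr1d2 (16.255%), and the cAMP response element in none (1.79%). Among the 11928 windows of genes measured here, the shares were 9.993%, 5.24%, 0.671%, 12.567% and 2.985% in the same order. A match of letters is a description of the window and not a bound site. Per1 and Cry1 are shown for their E-boxes, Per3 and Ciart, a repressor of the dimer, because their levels varied against that of Arntl from library to library, and Nr1d2 because it had the lowest adjusted p of the 10 genes between the groups. The motif is in capitals with 20 bases on either side, read 5′ to 3′ along the gene.
Per1: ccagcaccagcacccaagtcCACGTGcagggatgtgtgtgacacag
Cry1: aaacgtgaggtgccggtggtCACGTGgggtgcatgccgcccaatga
Per3: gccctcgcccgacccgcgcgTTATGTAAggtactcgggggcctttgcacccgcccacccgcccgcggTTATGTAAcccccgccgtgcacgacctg
Ciart: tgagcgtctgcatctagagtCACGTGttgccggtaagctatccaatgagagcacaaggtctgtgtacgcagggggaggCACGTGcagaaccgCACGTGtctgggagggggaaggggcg
Nr1d2: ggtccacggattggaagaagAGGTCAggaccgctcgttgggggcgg
The Per1 stretch, on the plus strand at chr11:69098763-69098808, lies inside the annotated gene and outside its exons. The Cry1 stretch also holds, in lower case and on the other strand, the E'-box of that window. The Cry1 stretch at chr10:85185089-85185134 and the Per3 stretch at chr4:151044796-151044890 lie upstream of the annotated genes on the minus strand. The Ciart stretch, with 3 E-boxes, is at chr3:95882247-95882364 on the minus strand and overlaps an annotated exon of Ciart by 5 bases. The Nr1d2 stretch, with the receptor core, is at chr14:18239158-18239203 on the minus strand, upstream of the annotated gene.

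All values are log2 of TMM-scaled CPM, the share of reads scaled to a common library size (log2 CPM), unless stated otherwise. Mybpc2, which checks the labels, stood at 12.41 to 12.85 in WT and at -0.47 to 1.67 in C2-/-, where it had 3 to 8 reads. WT replicates 1 to 3 held 14929214 to 15464499 reads, whereas WT replicate 4 (4683853) and C2-/- (2613277 to 4917936) were shallower, so that depth and genotype were separated by WT replicate 4 alone. A level of 3 reads corresponded to 0.195 to 1.12 CPM, and such floors cover counting error only. The labels only number the samples, whereas the study counts them as mice, and the p-values measure the spread between these samples. Of the 6 muscle fibre markers, 4 passed the test as lower in C2-/-, with a summed level of 17.07 to 17.34 in WT and 16.08 to 16.45 in C2-/-. All 4 fibroblast markers passed as higher (8.41 to 9.03 in WT, 10.29 to 10.48 in C2-/-). None of the 4 macrophage markers passed (3.26 to 4.32 and 3.73 to 4.57), nor did any of the 3 adipocyte markers present (-1.24 to 3.17 and 1.85 to 3.60). Of the endothelial and the Schwann cell markers, 1 of 4 each passed as lower (endothelial 8.06 to 8.76 and 7.77 to 8.16, Schwann cell 5.75 to 6.94 and 6.00 to 6.56). The 1 red blood cell marker present also passed as lower (2.07 to 2.37 and 0.187 to 1.16). Of all genes, 20.2% passed as higher and 25.0% as lower, and these marker calls were made without the GC correction described below. None of these markers was at 0 reads in all libraries, and their part in the results below was not tested. In whole muscle, fewer cells of a type and less RNA per cell cannot be told apart.

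In C2-/- muscle Nr1d2 and Clock were higher than in WT, whereas Cry2, Dbp and Per1 were lower. Arntl, Per2, Per3, Cry1 and Nr1d1 did not pass the test. A gene passed when limma, fitted across all genes, gave it an adjusted p below 0.05 and it changed more than 1.5-fold. Thus 5 of 10 clock genes passed, against 45.2% of all genes tested. Of these 2 were higher (20.2% of all genes) and 3 lower (25.0%). The libraries of the groups did not overlap for 3 of the 10 genes, namely Clock, Cry2 and Nr1d2, against 49.3% of all genes. The median log2 change of the 10 genes was 0.24, against -0.14 for all genes, and the median absolute change was 0.84 against 0.91. The share that passed was near the background, and the share without overlap was below it. The spread within the groups was wide: for 7 of the 10 genes the distance between the lowest and the highest WT library was larger than the difference between the group means.

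**Figure D1:**
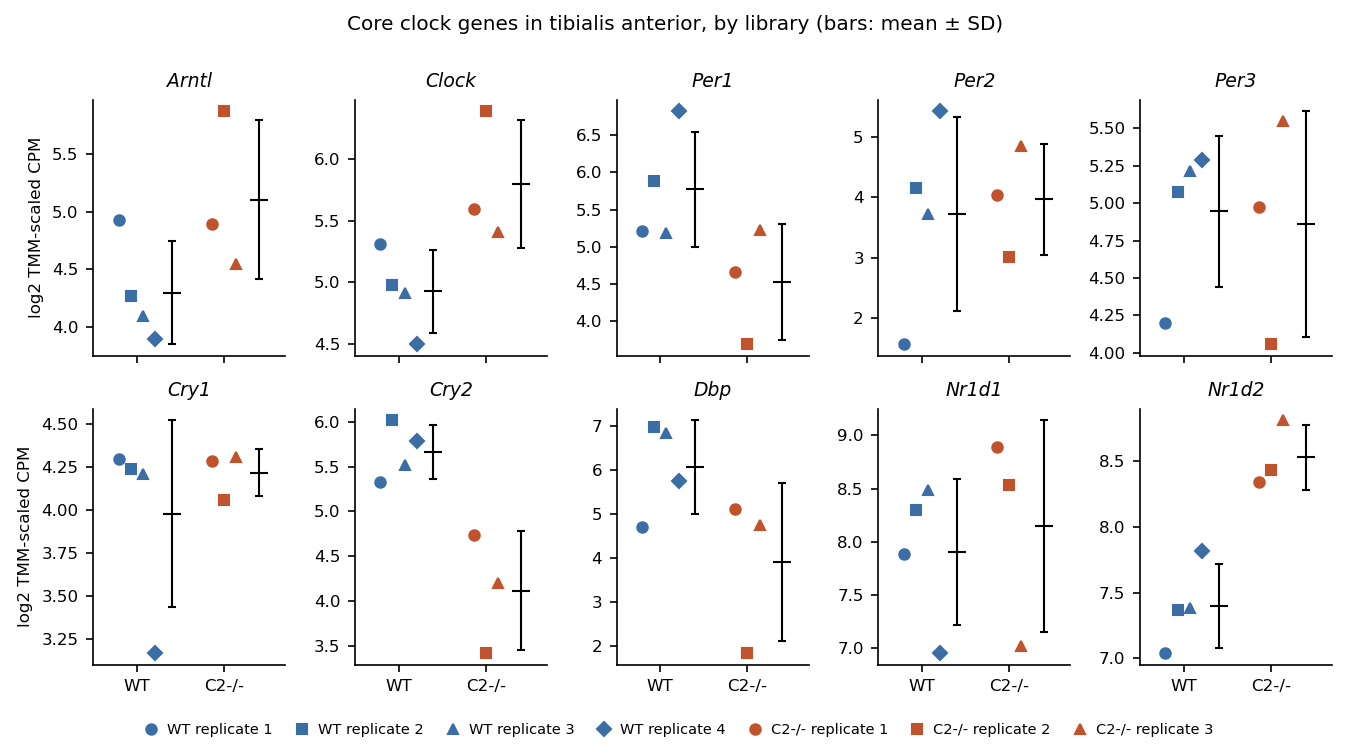
Level of each clock gene (log2 TMM-scaled CPM, vertical axes with their own ranges that do not start at 0) in the 4 WT (blue) and 3 C2-/- (orange) libraries, with 1 marker shape per replicate and the mean ± SD in black. Clock, Cry2 and Nr1d2 are the genes whose groups do not overlap, and Per2 ranges from 1.57 to 5.42 within WT.

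The positive limb is formed by Arntl and Clock, which encode the partners of the activating dimer. Clock (chr5:76209868-76304792) stood at 5.31, 4.98, 4.91 and 4.50 in WT replicates 1 to 4 and at 5.60, 6.39 and 5.41 in C2-/- replicates 1 to 3. All C2-/- libraries were thus above all WT libraries. The level was 1.83-fold higher, a log2 change of 0.87 with an SE of 0.28 (limma adjusted p = 0.0279). The call was lost when WT replicate 2 (0.89), WT replicate 3 (0.86) or C2-/- replicate 2 (0.58) was left out and without a mean-variance trend in the fit (limma adjusted p = 0.0585), and with a correction for GC content, described below, the sign turned (-0.12). Arntl (chr7:113207465-113314126) stood at 4.93, 4.26, 4.09 and 3.90 in WT and at 4.90, 5.87 and 4.54 in C2-/-. WT replicate 1 lay above 2 of the 3 C2-/- libraries, and the change of 0.81 (SE 0.35, 95% interval 0.02 to 1.60, limma adjusted p = 0.0848) did not pass the test. It passed without C2-/- replicate 3 (1.09) and with each library centred on its median (0.97), whereas without C2-/- replicate 2 it was 0.42 (limma adjusted p = 0.299) and with the GC correction 0.63 (0.242). Npas2, which can take the place of Clock in the dimer, was scarce, with 39, 10, 11 and 0 reads in WT and 0, 3 and 5 in C2-/-. Its change of 0.02 had a 95% interval of -2.55 to 2.59, so that a difference was not detectable in these libraries.

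The Per genes encode the repressors whose accumulation closes the loop. Per1 (chr11:69095217-69109960) stood at 5.21, 5.89, 5.18 and 6.82 in WT and at 4.66, 3.69 and 5.22 in C2-/-. C2-/- replicate 3 lay within the WT range, and WT replicate 4 was the highest library. The 2.38-fold lower level of Per1 in C2-/- passed the test (-1.25 on the log2 scale, SE 0.45, limma adjusted p = 0.0422). The call was lost without WT replicate 2 (-1.21), WT replicate 4 (-0.90), C2-/- replicate 1 (-1.32) or C2-/- replicate 2 (-0.83), and also with voom weights (-1.05), with median centring (-1.09) and without the trend (limma adjusted p = 0.0868), and with the GC correction the sign turned (0.37). Per2 (chr1:91415982-91459324) varied most among the libraries of WT. It stood at 1.57, 4.16, 3.73 and 5.42 in WT and at 4.03, 3.01 and 4.85 in C2-/-, so that the C2-/- libraries lay inside the WT range. WT replicate 1 had 45 Per2 reads, against 188 in WT replicate 4, which was the shallower library. The change was 0.24 (SE 0.77, 95% interval -1.47 to 1.96, limma adjusted p = 0.811), and it became -0.47 without WT replicate 1 and -0.20 without C2-/- replicate 3. Per3 (chr4:151003652-151044665) stood at 4.20, 5.08, 5.21 and 5.29 in WT and at 4.98, 4.06 and 5.55 in C2-/-. The WT range lay inside that of C2-/-, and the change was -0.08 (SE 0.38, 95% interval -0.92 to 0.75, limma adjusted p = 0.869), with a sign that turned under several settings.

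The Cry genes encode the partners of PER in repression, and of these Cry2 passed the test and Cry1 did not. Cry2 (chr2:92403646-92434043) stood at 5.33, 6.02, 5.52 and 5.79 in WT and at 4.74, 3.42 and 4.20 in C2-/-, without overlap. C2-/- libraries held 2.92-fold less Cry2 (-1.55 on the log2 scale, SE 0.31, limma adjusted p = 0.00352), and the call was kept when any single library was left out (-1.86 to -1.20) but lost with the GC correction (-0.43). Cry1 (chr10:85131700-85185064) stood at 4.30, 4.24, 4.21 and 3.17 in WT and at 4.28, 4.06 and 4.30 in C2-/-. Here 6 libraries lay within a narrow range and WT replicate 4 lay below them. The change of 0.24 (SE 0.32, 95% interval -0.47 to 0.94, limma adjusted p = 0.558) became -0.03 without WT replicate 4. Within each library, Cry1 was below Cry2 by 1.03 to 2.62 in WT, whereas the difference of Cry1 from Cry2 was -0.46, 0.64 and 0.11 in C2-/-.

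The REV-ERB receptors form the second loop, in which they repress Arntl. Nr1d2 (chr14:18204054-18239127) stood at 7.04, 7.37, 7.38 and 7.82 in WT and at 8.35, 8.44 and 8.81 in C2-/-, without overlap. C2-/- libraries held 2.19-fold more Nr1d2 (1.13 on the log2 scale, SE 0.20, limma adjusted p = 0.00213), and the call was kept when any single library was left out (0.99 to 1.27) but lost with the GC correction (0.24). Nr1d1 (chr11:98767932-98775333) stood at 7.88, 8.30, 8.49 and 6.95 in WT and at 8.90, 8.53 and 7.02 in C2-/-. The lowest libraries were WT replicate 4 and C2-/- replicate 3, and the groups overlapped. The change of 0.24 (SE 0.46, 95% interval -0.78 to 1.26, limma adjusted p = 0.682) became -0.08 without WT replicate 4 and -0.13 without C2-/- replicate 1. Nr1d1 and Nr1d2 were thus ordered differently across libraries: Nr1d2 minus Nr1d1 was -1.11 to -0.85 in WT replicates 1 to 3 and 0.87 in WT replicate 4, and it was -0.55, -0.10 and 1.80 in C2-/-. Rora, a receptor that activates through the same elements, was higher in C2-/- (6.25 to 7.27 in WT, 7.81 to 8.13 in C2-/-, a change of 1.39, SE 0.25, limma adjusted p = 0.00191).

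Dbp, the D-box activator that is among the most strongly rhythmic transcripts of many tissues, had the largest change and the widest C2-/- spread of the 10 genes. Dbp (chr7:45705088-45710203) stood at 4.70, 6.97, 6.83 and 5.74 in WT and at 5.11, 1.83 and 4.74 in C2-/-. C2-/- replicate 2 had 9 reads, against 100 in C2-/- replicate 1, a library of nearly the same depth. WT replicate 1 lay below both of the other C2-/- libraries, so that the groups overlapped. Dbp lies 1180 kb from Mybpc2 on the same chromosome, and Arntl, also on that chromosome, lies 68683 kb from it. The part of this position in the change of Dbp was not tested. On average C2-/- libraries held 4.49-fold less Dbp (-2.17 on the log2 scale, SE 0.77, limma adjusted p = 0.0411). The call was lost without WT replicate 2 (-1.86), WT replicate 3 (-1.91), WT replicate 4 (-2.27), C2-/- replicate 2 (-1.13) or C2-/- replicate 3 (-2.59), with voom weights (-2.03), with median centring (-2.005), without the trend (limma adjusted p = 0.0881) and with the GC correction (-0.34), and the change was -2.77 without C2-/- replicate 1. Tef, of the same PAR bZIP family, was at 7.93 to 8.48 in WT and at 6.76, 4.15 and 6.64 in C2-/-, without overlap. The level was 5.17-fold lower (-2.37 on the log2 scale, SE 0.53, limma adjusted p = 0.00545), and without C2-/- replicate 2, its lowest library, the change was -1.52 and still passed (limma adjusted p = 0.00204). Nfil3, which competes with these factors for D-boxes, was also lower (3.71 to 4.58 in WT, 1.67 to 3.20 in C2-/-, a change of -1.45, SE 0.42, limma adjusted p = 0.0179), a call that was lost without WT replicate 1 (-1.27).

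The changes were also set against the GC content of the transcripts. Across all genes the median log2 change went from 1.12 for the most GC-poor decile to -1.73 for the most GC-rich decile. Clock (40.9% GC) and Nr1d2 (41.8%), the members that were higher in C2-/-, had the lowest GC content of the 10. Dbp (61.6%) and Per1 (59.4%), both lower, had the highest. Against genes of like GC content, the change of Clock was at the 35.4th percentile, that of Cry2 at the 30.2nd, that of Dbp at the 33.5th, that of Per1 at the 68.7th and that of Nr1d2 at the 70.7th. Cry1, Per3 and Arntl were at the 72.3rd, 73.6th and 76.6th. The members farthest above genes of like GC content were Nr1d1 (92.8th percentile) and Per2 (88.5th), which had not passed the test. When the log2 values were corrected for GC content, 1 of the 10 genes passed, against 20.6% of all genes tested. That gene was Nr1d1, with corrected levels of 7.26, 7.67, 7.77 and 6.70 in WT and of 9.31, 9.58 and 7.77 in C2-/- (change of 1.54, SE 0.41, limma adjusted p = 0.0258). Its groups still overlapped, as C2-/- replicate 3 (7.7708) lay just below WT replicate 3 (7.7726). The corrected change was 0.24 for Nr1d2 (limma adjusted p = 0.329), -0.43 for Cry2 (0.284), -0.12 for Clock (0.811), -0.34 for Dbp (0.752) and 0.37 for Per1 (0.632). The sign thus turned for Clock and Per1, and it also turned for Per3 (0.50). Tef kept its call after the correction (-1.66, SE 0.48, limma adjusted p = 0.034). The part of GC content in these changes was not tested beyond this correction.

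**Figure D2:**
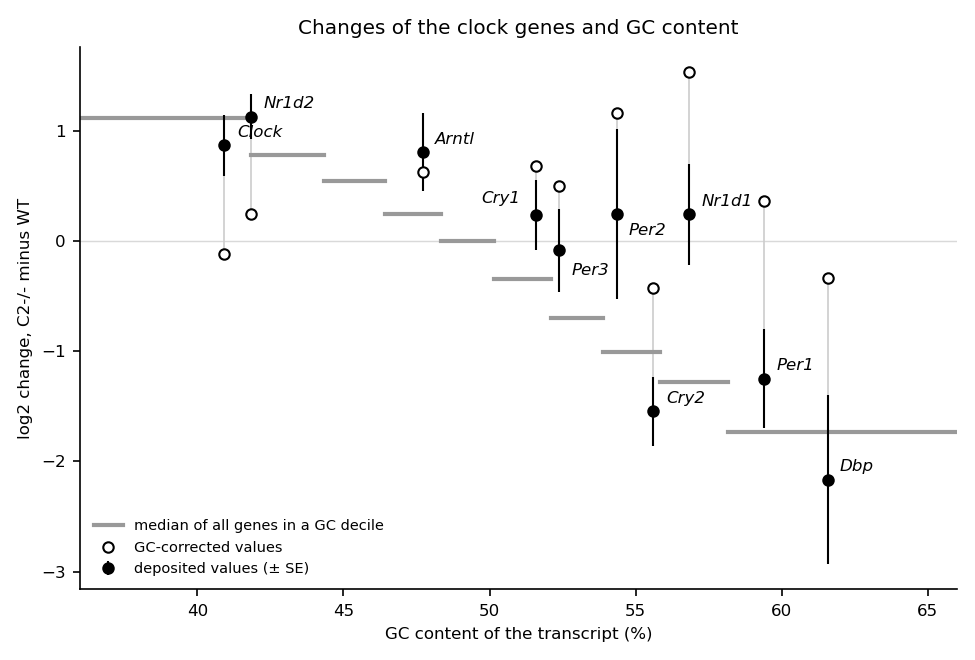
Log2 change of each clock gene (C2-/- minus WT, vertical axis) against the GC content of its transcript (%, horizontal axis), with deposited values as filled circles (bars are the SE), GC-corrected values as open circles, and the median of all genes in each decile of GC content as grey lines. The filled circles of Nr1d1 and Per2 lie farthest above the grey lines.

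WT replicate 4, the WT library of like depth to C2-/-, offered a comparison within the shallow libraries, without a test. It was part of the fit by which the 5 genes passed, and both comparisons share the C2-/- libraries, so that their directions are not independent. The mean of C2-/- differed from WT replicate 4 by 1.30 for Clock and 0.71 for Nr1d2, and by -2.30 for Per1, -1.67 for Cry2 and -1.85 for Dbp. Against WT replicates 1 to 3 the differences were 0.73, 1.27, -0.90, -1.51 and -2.27 in the same order. The sign differed between these comparisons for Per2, Per3, Cry1 and Nr1d1.

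The variation within the groups followed the limbs of the loop in part. Each library was set against the mean of its own group, which removes the difference between the genotypes. In WT replicates 1 to 4 the deviations of Arntl were 0.63, -0.03, -0.20 and -0.40. Clock ranked these libraries in the same order (0.39, 0.06, -0.02 and -0.43) and Per3 in the reverse order (-0.74, 0.13, 0.27 and 0.34). In C2-/-, Arntl was highest in replicate 2 (0.77), lower in replicate 1 (-0.21) and lowest in replicate 3 (-0.56). Per1, Per2 and Per3 all had the reverse order there, with -0.83, -0.95 and -0.80 in replicate 2 and 0.70, 0.89 and 0.69 in replicate 3. WT replicate 1 and C2-/- replicate 2 were thus high in Arntl and Clock and low in the Per genes, in Dbp (-1.36 and -2.07) and in Ciart (-2.15 and -2.52). Cry2 (-0.34 and -0.70) and Nr1d2 (-0.36 and -0.10) were also low there. Nr1d1 (-0.02 and 0.38) and Cry1 (0.32 and -0.16) were not low in both. Ciart itself did not pass the test between the groups (0.42, 3.71, 3.09 and 3.05 in WT, 2.42, -0.83 and 3.47 in C2-/-, a change of -0.88, SE 1.04, limma adjusted p = 0.498).

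**Figure D3:**
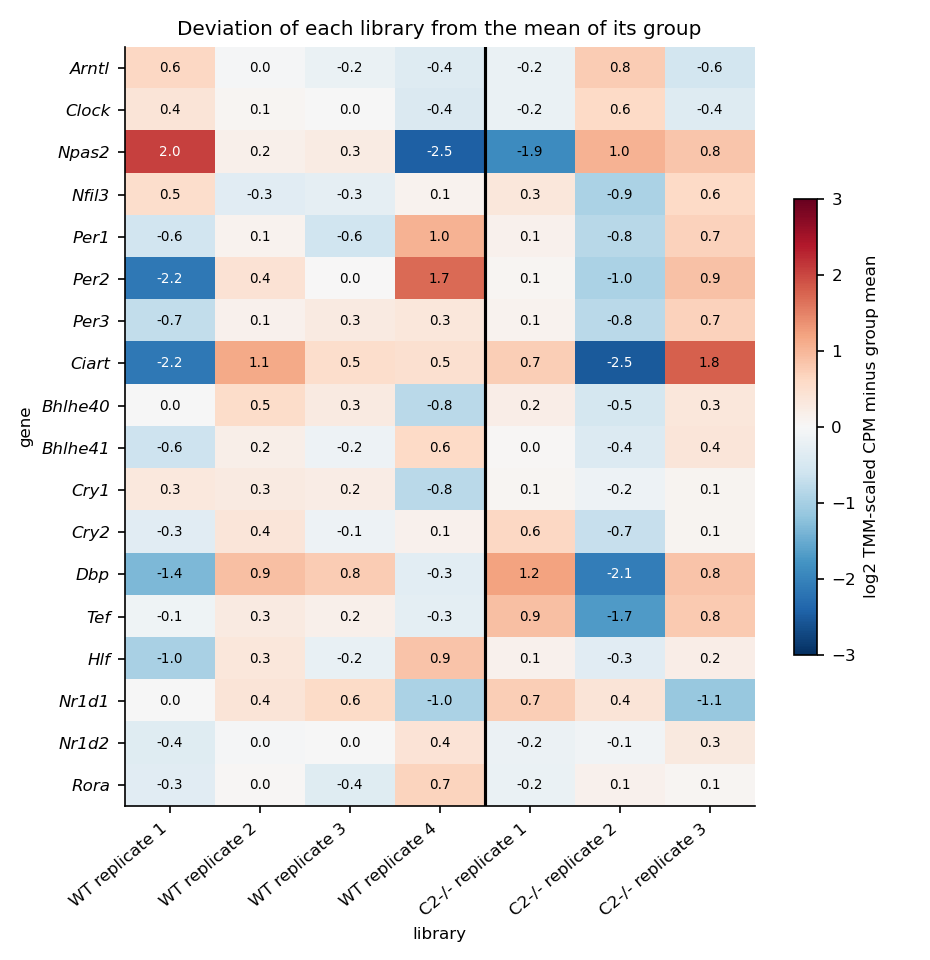
Deviation of each library from the mean of its group (log2 TMM-scaled CPM, colour and printed values) for clock genes in rows and the 7 libraries in columns, with the black line between WT and C2-/-. Arntl and Clock are positive and the Per genes, Dbp and Ciart negative in WT replicate 1 and C2-/- replicate 2. Nr1d1 is positive in C2-/- replicate 2 and Cry1 in WT replicate 1.

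Over the 7 libraries, 3 of the 9 relations of Arntl with another member passed an exact permutation test within the groups (all arrangements of the libraries within WT and within C2-/-, two-sided, Benjamini-Hochberg over the 9 relations), in which the smallest p that can be reached is 0.00694. Clock varied with Arntl (r = 0.970, exact permutation p = 0.00694, adjusted 0.03125; rho = 0.964, p = 0.00694, adjusted 0.0625). Per3 varied against it (r = -0.989, exact permutation p = 0.00694, adjusted 0.03125; rho = -0.893, p = 0.0417, adjusted 0.125). Per2 also varied against it (r = -0.863, exact permutation p = 0.0139, adjusted 0.0417; rho = -0.821, p = 0.0417, adjusted 0.125). None of the rank correlations passed after adjustment. Per1 (r = -0.801), Dbp (-0.829), Nr1d2 (-0.715) and Cry2 (-0.714) had negative values that did not pass (exact permutation, adjusted p = 0.15, 0.15, 0.167 and 0.223), nor did Nr1d1 (0.441) and Cry1 (0.238). When the libraries farthest from the median of Arntl, WT replicate 1 and C2-/- replicate 2, were left out, r was 0.895 for Clock, -0.908 for Per3 and -0.590 for Per2. It turned to 0.361 for Dbp and 0.357 for Cry2, whose negative values therefore rested on those libraries, and rose to 0.860 for Nr1d1. When any single library was left out, r stayed between 0.929 and 0.984 for Clock and between -0.994 and -0.979 for Per3 and between -0.952 and -0.818 for Per2, but the adjusted p, over fewer arrangements, then passed for none of the relations. The other values moved more, from -0.627 to 0.609 for Cry1, from 0.046 to 0.639 for Nr1d1, from -0.823 to -0.280 for Cry2, from -0.945 to -0.564 for Dbp, from -0.901 to -0.547 for Nr1d2 and from -0.969 to -0.671 for Per1. After the GC correction r was 0.897 for Clock, -0.955 for Per3 and -0.794 for Per2, and none of the 9 relations passed (lowest exact permutation adjusted p = 0.0625). The deviations of the libraries also followed GC content across genes, with Spearman's rho from -0.357 in WT replicate 4 to 0.397 in WT replicate 3, and their part in these relations was not tested beyond the correction. The deep part (3 WT libraries) and the shallow part (4 libraries) hold too few libraries for a test within each.

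**Figure D4:**
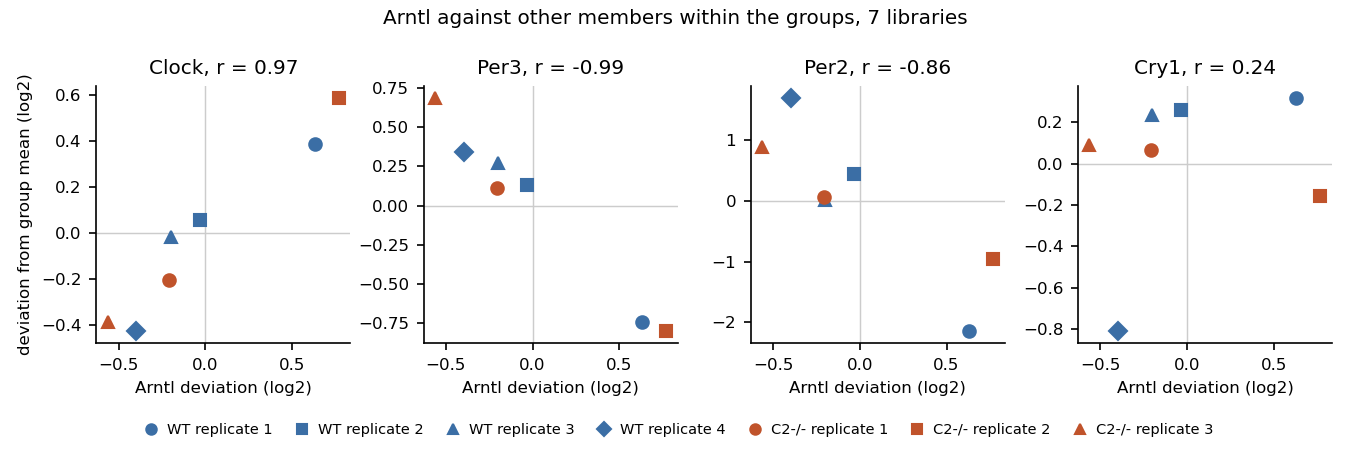
Deviation from the group mean of Clock, Per3, Per2 and Cry1 (log2, vertical axes) against that of Arntl (log2, horizontal axes) in the 4 WT (blue) and 3 C2-/- (orange) libraries. Clock rises with Arntl and Per3 and Per2 fall with it, whereas WT replicate 4 lies apart in Cry1.

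Set against the 5879 genes with a mean of at least 4 log2 CPM, the pairing of Arntl with Clock and Per3 stood at the ends of the ranking, given here as a description over the same 7 libraries. Clock had the second highest r with Arntl, after Cul4b (0.986), a scaffold of ubiquitin ligases. Per3 had the most negative r of all. Per2 and Ciart were below that mean level and were not ranked. The non-member genes with the highest r were Cul4b, Prpf6 (0.968), Psmg2 (0.962), Brd8 (0.962) and Nsun2 (0.960). After the GC correction Clock ranked 59th of 5869 and Per3 the 4th from the lowest, and Lpin1 (0.984), Fzd7 (0.975), Lemd3 (0.972), Camta2 (0.969) and Brd8 (0.965) were most like Arntl. For Dbp, the most alike were Wnk2 (0.971), Col6a1 (0.955), Tmem63a (0.952), Wfdc1 (0.949) and Psmb2 (0.949), whereas Tcap, a Z-disc protein gene known to follow the clock, ranked 16th, Tef 42nd, Cry2 74th and Per3 112th. After the correction the most like Dbp were Vps13a (0.959), Akap6 (0.958), Rars2 (0.958), Efcab14 (0.942) and Afap1l1 (0.932), and Tef ranked 46th, Per3 56th, Cry2 145th and Tcap 499th.

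Of 14 other clock genes listed, 12 were analysed here. Of these, 4 of 12 (33.3%) passed the test, 2 higher and 2 lower, a share below the 45.2% of all genes (20.2% higher and 25.0% lower), with a median change of -0.25 against -0.14 for all genes. These were Rora, Tef, Nfil3 and Bhlhe41. Bhlhe41, a repressor that competes for E-boxes, was higher in C2-/- (5.52 to 6.75 in WT, 6.81 to 7.59 in C2-/-, a change of 1.08, SE 0.29, limma adjusted p = 0.0127). It also passed after the GC correction (0.87, limma adjusted p = 0.0464), but not without C2-/- replicate 3 (0.90). After the GC correction the changes were 0.40 for Rora and -0.50 for Nfil3, and neither passed. With Btrc and Csnk1e in their place, 4 of 12 (33.3%) passed then too, a share above the 20.6% of all genes. Of 6 genes known to follow the clock in muscle or other tissues, 2 (33.3%) passed, against 45.2% of all genes, and both were lower, against 25.0% of all genes, with a median change of -0.66 against -0.14. Tcap was at 10.75 to 11.31 in WT and 8.23 to 9.19 in C2-/- (change of -2.24, SE 0.25, limma adjusted p = 0.000323). Myod1, the myogenic factor, was at 5.20 to 6.05 in WT and 4.09 to 5.02 in C2-/- (change of -1.09, SE 0.29, limma adjusted p = 0.013). After the GC correction neither passed (-0.44 and 0.48), and the sign for Myod1 turned.

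The levels of the genes relative to one another were compared per length of transcript, as CPM per kilobase, in WT (mean ± SD, n = 4). Nr1d1 was the most abundant at 95.1 ± 38.0, followed by Dbp at 43.4 ± 25.9 and Nr1d2 at 36.9 ± 8.40. Per1 at 13.1 ± 7.74, Cry2 at 12.9 ± 2.72, Arntl at 6.86 ± 2.32, Cry1 at 5.46 ± 1.66 and Per3 at 5.35 ± 1.56 were lower. Per2 at 3.30 ± 2.91 and Clock at 3.19 ± 0.722 were the least abundant. Neighbours in this order overlapped in range, except that Nr1d2 (28.2 to 48.4) lay above Per1 (7.77 to 24.2). In C2-/- (n = 3) Nr1d1 stood at 120 ± 65.3 CPM per kilobase, Nr1d2 at 80.2 ± 14.3, Dbp at 11.8 ± 8.79 and Clock at 5.97 ± 2.29.

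Some of these genes share sequence with a neighbour on the other strand, and the strand setting of the counting is not given in the sources used here, so that reads in the shared part cannot be told apart. In the GENCODE annotation of GRCm38, Dbp shares 539 exonic bases (18.0%) with Sphk2, which was also lower (log2 change -1.09, limma adjusted p = 0.0404). Nr1d1 shares 263 bases (8.55%) with Thra, which was lower as well (-1.96, limma adjusted p = 0.00217) while Nr1d1 did not pass. After the GC correction the changes were 0.43 for Sphk2 and -0.29 for Thra, and neither passed (limma adjusted p = 0.315 and 0.492). Cry2 shares 295 bases (4.67%) with D930015M05Rik, and Arntl 33 bases (0.439%) with Gm45355.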

How the data were processed

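Poly(A) RNA of TA muscle from WT (4 libraries) and C2-/- mice (3 libraries) was sequenced on DNA nanoballs. Per the labels and the study's methods, the authors aligned reads to GRCm38.p6 with HISAT, counted them per gene with featureCounts (1.5.2) and scaled them with edgeR (TMM). The deposited values are log2 CPM with 0.5 added to the reads, and whole reads were recovered for 100% of them (tolerance 0.001). The gene filter, strand and multiply mapped reads are not given in the sources used here. A table of the authors' own comparison (fold changes and p-values) was not used.

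The log2 values were fitted with limma (3.58.1, R 4.3.3; eBayes with trend, Benjamini-Hochberg over 12239 genes). The fit and the permutation were tested on simulated data. GC content came from GENCODE M21 transcripts for 12179 genes (99.5%). For the GC correction, a natural spline (5 degrees of freedom) was fitted per library and replaced by the mean curve. Correlations used deviations from group means and exact permutations (scipy 1.17.1). CPM per kilobase used the length of 1 transcript per gene.

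The members, lists and tests were chosen with earlier results of these data known. The genes named were all members, list genes past the threshold, Npas2, Tef, Bhlhe41 and Ciart, Mybpc2, and the 5 genes most like Arntl and Dbp. Some listed genes are not reported here and were left out of the list counts. Sphk2 and Thra were named for their overlap, and Csnk1e, Csnk1d, Btrc, Usp2, Wee1, Timeless and Pdk4 after their values were seen. Alternatives covered voom, scaling, GC content, low values, offsets, thresholds, the replicate block and each library left out.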

Additional observations from a re-analysis of the deposited data

Results flagged for a closer look

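Dixon's test was applied to 29 sets of 4 WT values (the members' and listed genes' levels and the library totals). Of these sets 2 held a value apart from the other WT libraries, where chance gives about 1.4. Both values belonged to WT replicate 4. Its Cry1 level was 3.17 log2 CPM whereas WT replicates 1 to 3 were at 4.21 to 4.30, and without it the change of Cry1 was -0.03. It held 4683853 reads against 14929214 to 15464499.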

How the results depend on the processing

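Of the 10 clock genes 5 passed the test (45.2% of all genes), and 2 passed at an adjusted p under 0.01 (26.3%), 3 with voom weights on the recovered reads (49.1%), 1 with the GC correction (20.6%), 2 without a mean-variance trend (42.7%), 2 with the replicate block and GC correction together (Nr1d1 and Per2; 23.9%) and 2 to 5 with a library left out (33.5% to 50.1%). Of the clock-controlled genes 2 passed, and 1 at 0.01, 0 with limma after the GC correction (also 0 at an unadjusted p under 0.05) and 1 (Usp2) with block and GC correction. Of the other clock genes 4 passed, and 2 at 0.01, and the count stayed within 1.5 times under all other settings tried. Of the relations with Arntl 3 passed, and 0 with the GC correction (4 at an unadjusted p under 0.05) or with any library left out (2 to 4), where fewer arrangements (36 or 48) allow no p as small. Signs turned for Clock (-0.12 with the GC correction, -0.34 with block and GC correction), Per1 (0.37 and 0.84) and Myod1 (0.48 and 0.77), and for Per3 (0.063 with voom, 0.078 with median centring, 0.50 with the GC correction, 0.031 with the block, 0.67 with block and GC correction). With the block they also turned for Cry1 (-0.034) and Nr1d1 (-0.077). There is no C2-/- replicate 4, so that WT replicate 4 does not enter the change under the block. With a library left out, Per2 ranged from -0.47 to 0.81, Per3 from -0.43 to 0.32, Cry1 from -0.034 to 0.34 and Nr1d1 from -0.13 to 0.81. The cause was not tested. The replicate numbers do not pair the samples (same-numbered deviations correlated at 0.053, -0.064 and -0.053), and with them as a replicate block 4 clock genes passed (Clock, Cry2, Dbp and Nr1d2; 48.2% of all genes). Few reads limit the precision in C2-/- replicate 2, with 9 reads for Dbp, 21 for Per2, 8 for Nfil3, 14 for Timeless, 3 for Npas2, 1 for Ciart and 0 for Wee1.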

Other observations

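The kinases and ligase subunits that act on PER proteins gave values that were looked at after they were seen. Csnk1e, the casein kinase that phosphorylates PER, stood at 5.91 to 6.61 log2 CPM in WT and at 7.28, 6.61 and 6.36 in C2-/- (change of 0.61, SE 0.25, limma adjusted p = 0.0719). After the GC correction its change was 1.84 (limma adjusted p = 0.00288). Btrc, a ligase subunit that recognises phosphorylated PER, had a change of -0.17 (limma adjusted p = 0.496) that became -0.86 (limma adjusted p = 0.0102). Csnk1d had a change of -0.44 that became 0.44, and passed under neither.

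Usp2, a deubiquitinase gene whose transcript is known to follow the clock, did not differ past the threshold between the groups (log2 change -0.19, SE 0.29, limma adjusted p = 0.598), while its deviations from the group means had r = -0.941 with those of Arntl, the 10th most negative of 5879 genes, and the 149th of 5869 after the GC correction (-0.822). Wee1, a cell cycle kinase gene, had 0 reads in C2-/- replicate 2, against 19 and 63 in the other C2-/- libraries. Pdk4, which restrains glucose oxidation, was highest in C2-/- replicate 2 (10.72) and ranged from 7.37 to 9.01 in WT (log2 change 1.07, SE 0.61, limma adjusted p = 0.17).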
